A study of Mus musculus with 12 samples.

Results

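Innate immune and cytokine signalling genes were followed in mouse cumulus cells, the somatic cells that surround the oocyte. The list held 55 genes chosen by symbol from textbook pathways, with earlier results of these data known. Its shares, set beside those of all genes below, are therefore descriptive. It had 19 receptors, 16 adaptors and NF-kB genes, 12 cytokines, and 8 genes of the JAK, STAT and SOCS group. Of these, 50 had a probe set with a single gene symbol in the platform annotation, out of 19938 genes in all. Tlr5, Il1r1, Il1rl1, Irak4 and Nfkb1 are not analysed here. Each gene was represented by the probe set with the highest mean over the 12 arrays.

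The 12 arrays came from 3 groups of 4. Whole cumulus-oocyte complexes of 129SV females, 21 to 26 days old and primed with 5 IU of equine chorionic gonadotropin 44 h earlier, were cultured for 8 h, 20 complexes to a drop of 50 microlitres. The control group had 293H control medium (0.125%, volume per volume). To the FSH/EGF group were given FSH, a pituitary gonadotropin, at 50 mIU/ml and EGF, epidermal growth factor, at 10 ng/ml, with the same control medium. The GDF9 group had 20 ng/ml of GDF9, a TGF-beta family ligand released by the oocyte, and the labels name no control medium for it. Collection medium held cilostamide, which blocks phosphodiesterase, at 1 micromolar for every group, and complexes kept their oocytes until culture ended. Each array held RNA pooled from 2 of 8 separately extracted replicates, so the p-values measure the spread between such pools.

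Toll-like receptors sense microbial and damage-linked molecules and signal through the adaptors MyD88 and TRIF (the Ticam1 product) to NF-kB, a family of transcription factors held back by inhibitor proteins such as the Nfkbia product. Cytokines of the IL-6 family signal through gp130 (the Il6st product), JAK kinases and STAT3, and SOCS proteins damp that signal. Cumulus and granulosa cells are known to carry several of these receptors and to make IL-6 around ovulation.

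Promoter sequences are shown for 7 members that stood at different points of the response, so that matches to the binding motifs of these factors can be read beside the expression values. RefSeq promoter entries (build GRCm38.p6) matched 43 of the 50 measured members. Each sequence is the 250 bases before the annotated start, 5' to 3' on the gene's strand, and capitals mark matches on either strand to the NF-kB consensus, the STAT motif TTCNNNGAA, the AP-1 motif TGANTCA or the cAMP response element TGACGTCA. Overlapping matches form a single run of capitals. Positions are those of a match's first base, with -1 just before the start. Among the members, Tlr2 (chr3:83841609-83841858 (minus strand)) rose most with FSH/EGF, and Myd88 (chr9:119340019-119340268 (minus strand)) was the adaptor that rose most. Lif (chr11:4257318-4257567 (plus strand)) and Il6 (chr5:30012864-30013113 (plus strand)) were the member cytokines that rose most. Socs3 (chr11:117969367-117969616 (minus strand)) is a SOCS gene that rose. Cxcl1 (chr5:90890995-90891244 (plus strand)) and Nfkbia (chr12:55492648-55492897 (minus strand)) are known NF-kB targets that did not pass the test. All were chosen from their values: Tlr2, Myd88 and Lif were among members named by a rule on size or p of the change. The others were picked with their values in view.
Tlr2: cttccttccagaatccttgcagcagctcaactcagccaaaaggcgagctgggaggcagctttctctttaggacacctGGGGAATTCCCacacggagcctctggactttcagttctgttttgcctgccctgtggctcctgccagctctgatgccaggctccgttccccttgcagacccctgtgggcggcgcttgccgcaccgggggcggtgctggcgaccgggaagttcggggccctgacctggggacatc
Myd88: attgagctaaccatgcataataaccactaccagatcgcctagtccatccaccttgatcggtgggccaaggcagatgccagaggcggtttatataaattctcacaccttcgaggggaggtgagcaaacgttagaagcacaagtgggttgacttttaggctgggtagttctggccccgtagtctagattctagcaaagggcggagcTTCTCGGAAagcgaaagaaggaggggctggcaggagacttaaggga
Lif: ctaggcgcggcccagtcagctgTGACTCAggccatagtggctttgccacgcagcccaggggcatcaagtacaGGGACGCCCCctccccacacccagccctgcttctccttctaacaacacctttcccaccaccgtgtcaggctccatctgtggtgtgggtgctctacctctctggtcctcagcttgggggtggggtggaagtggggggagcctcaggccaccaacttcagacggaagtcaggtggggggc
Il6: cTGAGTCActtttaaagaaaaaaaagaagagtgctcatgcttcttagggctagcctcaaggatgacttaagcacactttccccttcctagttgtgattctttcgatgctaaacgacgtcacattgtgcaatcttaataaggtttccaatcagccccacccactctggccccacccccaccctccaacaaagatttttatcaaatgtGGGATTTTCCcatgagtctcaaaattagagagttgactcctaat
Socs3: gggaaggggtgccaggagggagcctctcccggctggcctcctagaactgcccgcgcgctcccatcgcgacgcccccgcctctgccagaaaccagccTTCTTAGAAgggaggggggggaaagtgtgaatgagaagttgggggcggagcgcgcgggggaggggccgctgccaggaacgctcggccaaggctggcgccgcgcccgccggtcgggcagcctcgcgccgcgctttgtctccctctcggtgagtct
Cxcl1: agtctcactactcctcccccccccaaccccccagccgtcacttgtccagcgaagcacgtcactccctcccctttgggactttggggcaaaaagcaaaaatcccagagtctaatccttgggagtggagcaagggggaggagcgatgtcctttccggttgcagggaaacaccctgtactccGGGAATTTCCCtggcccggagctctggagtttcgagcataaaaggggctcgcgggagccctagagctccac
Nfkbia: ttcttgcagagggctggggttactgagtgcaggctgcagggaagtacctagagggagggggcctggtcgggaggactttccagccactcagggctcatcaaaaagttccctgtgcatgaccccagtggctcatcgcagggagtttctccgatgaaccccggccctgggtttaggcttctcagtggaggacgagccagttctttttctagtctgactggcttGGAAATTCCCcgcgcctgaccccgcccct
The NF-kB consensus was met in Tlr2 at -173, in Lif at -178, in Il6 at -44, in Cxcl1 at -71 and in Nfkbia at -29. The STAT motif was met in Myd88 at -46 and in Socs3 at -154, and the AP-1 motif in Lif at -228 and in Il6 at -249. Over all 32851 promoter windows of this length, 7.25% held the NF-kB consensus, 7.02% the STAT motif, 6.75% the AP-1 motif and 1.55% the cAMP response element. Members are counted by gene, and by gene these shares were 8.23%, 8.13%, 7.82% and 1.77% of 27025 genes. Among members, the NF-kB consensus was met in 5 of the 20 with a window that were higher with FSH/EGF and in 8 of the 22 that did not pass the test. For the STAT motif these counts were 4 of 20 and 2 of 22, for the AP-1 motif 4 of 20 and 3 of 22, and for the cAMP response element 0 of 20 and 1 of 22. A match is a run of letters and does not show that a factor binds there.

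FSH/EGF minus control compared cells given the pair of factors that bring on cumulus expansion with cells in control medium. Of the 50 measured members, 22 rose and 2 fell past limma's threshold (adjusted p under 0.05 over all 35399 rows of the table), and 26 did not pass. Over all genes, 36.8% passed the same test, 21.9% higher and 14.9% lower. Among the members, 10 rose at least 2-fold and 0 fell as much, where 5.14% of all genes rose and 2.23% fell that far. The 4 FSH/EGF arrays lay above all control arrays for 23 members and below them for 5, beside 22.4% and 19.6% of all genes. The median difference of the members was 0.11 on the log2 scale, and that of all genes was -0.07. The lower count rested on few genes: it was 4 without FSH/EGF array 4. By role, 8 of 14 adaptors and NF-kB genes, 7 of 16 receptors, 4 of 8 JAK, STAT and SOCS genes and 3 of 12 cytokines rose.

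**Figure D1:**
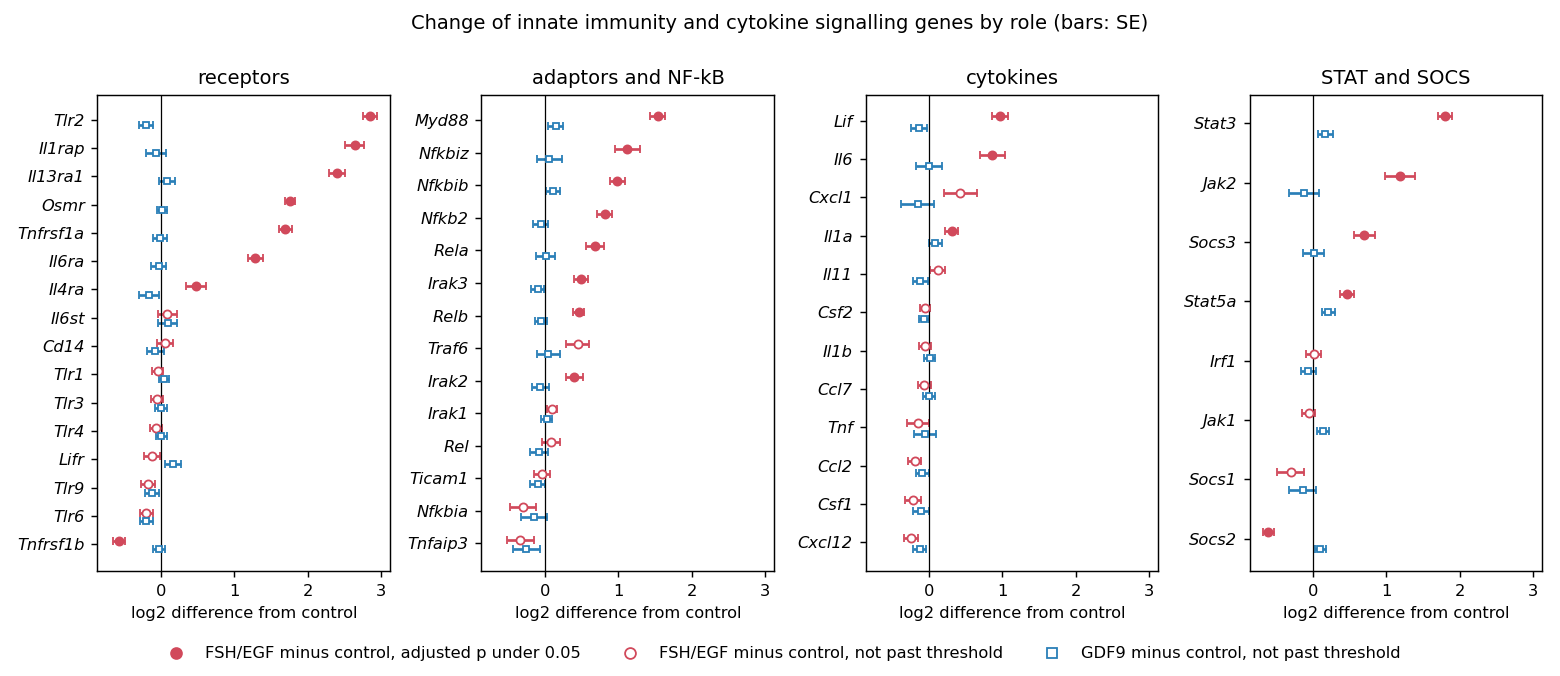
Difference from the control group on the log2 scale for each of the 50 measured members, with 1 panel per role; circles are FSH/EGF minus control, squares are GDF9 minus control, bars are standard errors, and filled symbols passed limma's threshold. Tlr2 lies farthest right at 2.85, Tnfrsf1b and Socs2 are the filled circles left of 0, and no square is filled.

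**Figure D2:**
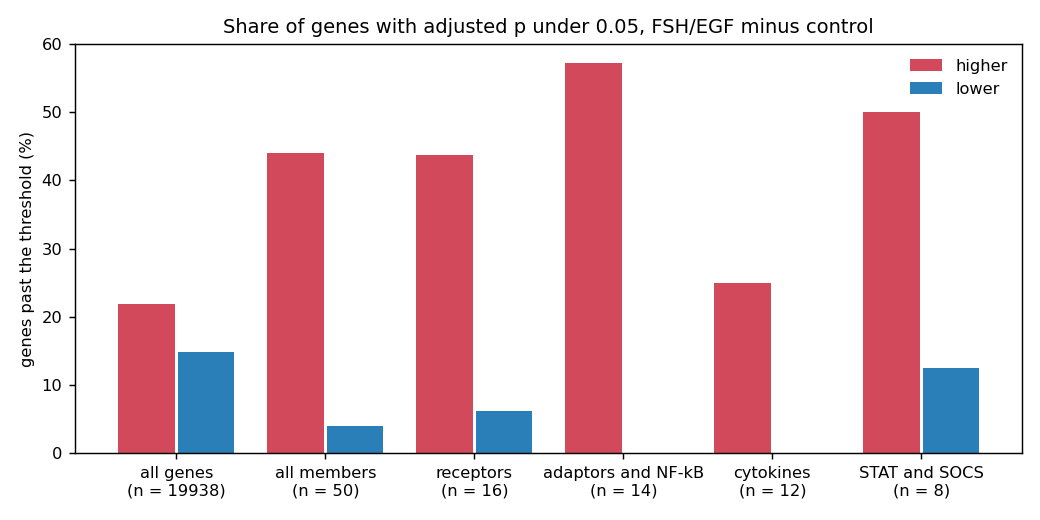
Percent of genes past limma's threshold in FSH/EGF minus control, higher and lower, for all 19938 genes, the 50 members and their 4 roles; bars start at 0 and n under each label is the number of measured genes. Higher calls made up 21.9% of all genes and 44% of the members, and the cytokines stood at 25%.

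Among the 6 Toll-like receptor genes measured as members, only Tlr2 passed the test. Tlr2 encodes the sensor of bacterial lipoproteins. Its log2 values were 5.89, 5.68, 5.80 and 5.54 on the control arrays, 5.56, 5.61, 5.38 and 5.53 on the GDF9 arrays, and 8.45, 8.53, 8.57 and 8.76 on the FSH/EGF arrays. All 4 FSH/EGF arrays lay far above the other 8, which overlapped with each other. Tlr2 rose 7.23-fold, or by 2.85 ± 0.09 (SE of the log2 difference, 4 arrays a group; limma adjusted p = 3.94e-10), and ranked 80th among the 19938 genes by size of rise. Tlr1 and Tlr6 encode the partners with which TLR2 forms its receptor pairs. Their differences were -0.05 (95% interval -0.20 to 0.11) for Tlr1 and -0.20 (-0.39 to -0.00) for Tlr6, and neither passed the test (limma adjusted p = 0.647 and 0.118). Tlr3, the sensor of double-stranded RNA, stood at -0.05, Tlr4, the endotoxin receptor, at -0.07, and Tlr9, the sensor of unmethylated DNA, at -0.17. Cd14, which hands endotoxin and lipoproteins to these receptors, was at 0.05 (-0.19 to 0.30). The intervals of all these genes excluded a 2-fold change. Values of Tlr1, Tlr3, Tlr4 and Tlr6 on all arrays lay between 3.83 and 4.67, in the lowest 2 of 10 level classes of genes, where an array may understate a change.

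Receptor chains of the IL-1 and IL-13 systems also rose. Il1rap encodes the accessory chain that IL-1 and IL-33 receptors share. It stood at 5.74, 6.07, 5.59 and 5.99 on the control arrays, 5.90, 5.83, 5.39 and 5.997 with GDF9, and 8.49, 8.42, 8.59 and 8.45 with FSH/EGF. Every FSH/EGF array exceeded the other 8, and the rise was 2.64 ± 0.13 (6.23-fold; limma adjusted p = 1.8e-08). Il13ra1 encodes the chain that joins the Il4ra product in the receptor for IL-13 and IL-4. Its values were 4.88, 4.75, 4.87 and 4.89 in the controls, 5.03, 4.98, 4.97 and 4.76 with GDF9, and 7.42, 7.47, 7.06 and 7.02 with FSH/EGF. Again the FSH/EGF arrays stood apart, with a rise of 2.39 ± 0.11 (5.26-fold; limma adjusted p = 6.92e-09). Its partner Il4ra rose by 0.47 ± 0.13 (1.39-fold; limma adjusted p = 0.0179). That call did not hold once control array 2 was dropped, with 0.40 and an adjusted p of 0.0539, nor once FSH/EGF array 1 was dropped, with 0.44 and 0.0525.

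The TNF receptor genes went opposite ways. Tnfrsf1a, the receptor that carries a death domain, stood at 7.42, 7.47, 7.38 and 7.78 in the controls, 7.58, 7.49, 7.34 and 7.59 with GDF9, and 9.18, 9.31, 9.18 and 9.17 with FSH/EGF. It rose by 1.70 ± 0.09 (3.24-fold; limma adjusted p = 3.84e-08), and all FSH/EGF values exceeded the rest. Tnfrsf1b, the receptor without a death domain, was at 8.27, 8.06, 8.21 and 8.21 in the controls, 8.10, 8.37, 8.11 and 8.06 with GDF9, and 7.64, 7.58, 7.74 and 7.49 with FSH/EGF. It fell by 0.57 ± 0.09 on the log2 scale (limma adjusted p = 0.000294), with every FSH/EGF array below every other array. Tnf itself, the ligand, was at -0.15 ± 0.15 and its groups overlapped.

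Among the IL-6 family receptor chains, Il6ra and Osmr rose, and Il6st and Lifr did not pass the test. Il6ra, the IL-6 binding chain, was at 6.69, 6.26, 6.22 and 6.21 in the controls, 6.43, 6.36, 6.28 and 6.19 with GDF9, and 7.63, 7.63, 7.69 and 7.57 with FSH/EGF. Every FSH/EGF array exceeded every other array, control array 1 being the highest control, and the rise was 1.28 ± 0.10 (2.44-fold; limma adjusted p = 1.19e-06). Osmr, the oncostatin M receptor, stood at 4.34, 4.23, 4.27 and 4.18 in the controls, 4.16, 4.29, 4.26 and 4.37 with GDF9, and 6.01, 5.91, 6.02 and 6.11 with FSH/EGF. Its groups did not overlap, and it rose by 1.76 ± 0.07 (3.38-fold; limma adjusted p = 2.25e-09). Its control and GDF9 values were as dim as those of Tlr1, Tlr3, Tlr4 and Tlr6, so this fold may be understated. Il6st, which encodes gp130, had a difference of 0.09 (95% interval -0.18 to 0.36), with control arrays from 8.09 to 8.65 and FSH/EGF arrays from 8.43 to 8.63. Lifr, the receptor of leukaemia inhibitory factor, had a difference of -0.12 (-0.36 to 0.12). After renewed quantile normalization Lifr was past the threshold at -0.30 (limma adjusted p = 0.0232).

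**Figure D3:**
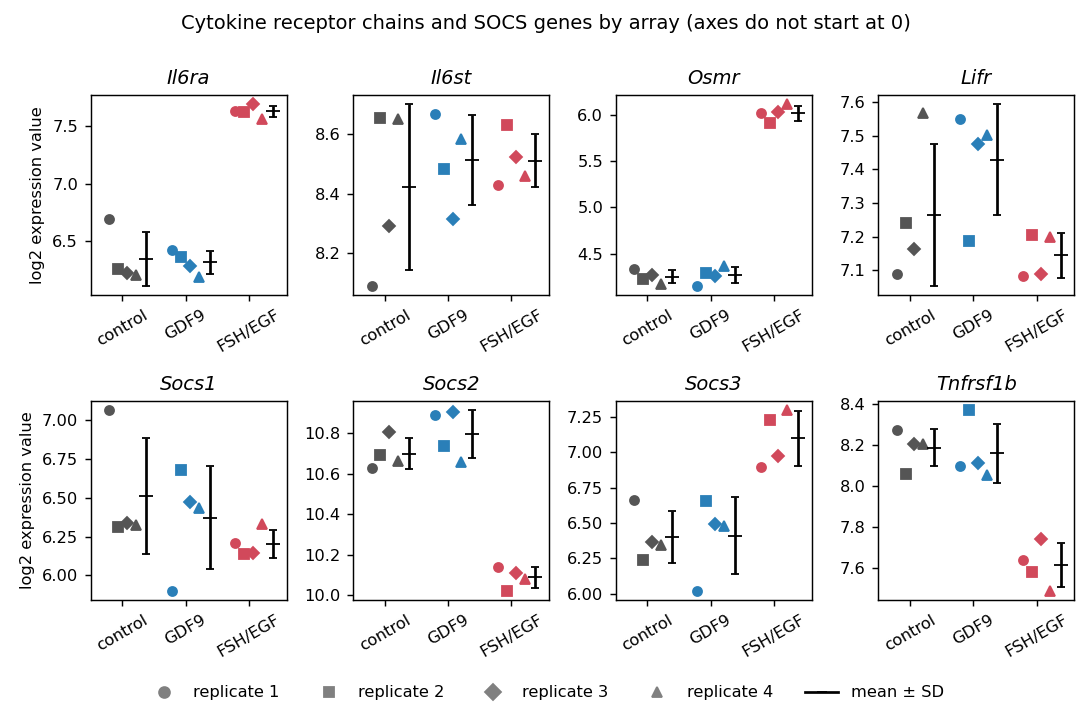
Log2 expression values on each array for IL-6 family receptor chains, the SOCS genes and Tnfrsf1b; colours are the 3 groups, marker shapes the replicate numbers, and the black bar is the mean ± SD of 4 arrays. Il6ra and Osmr are higher on all FSH/EGF arrays, Il6st overlaps between groups, and Socs2 and Tnfrsf1b are lower on all FSH/EGF arrays.

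Below the receptors, Myd88 rose and Ticam1 did not pass the test. Myd88 encodes the adaptor of most Toll-like receptors and of the IL-1 receptor family. It stood at 6.79, 6.98, 6.94 and 7.001 in the controls, 7.35, 6.98, 6.90 and 7.07 with GDF9, and 8.51, 8.48, 8.29 and 8.60 with FSH/EGF. All FSH/EGF arrays lay above the other 8, and the rise was 1.54 ± 0.10 (2.91-fold; limma adjusted p = 1.94e-07). Ticam1, whose product serves TLR3 and TLR4, had a difference of -0.04 (95% interval -0.27 to 0.19). Among the kinases that MyD88 recruits, Irak3, which encodes an inhibitory member of the family, rose by 0.49 ± 0.09 (limma adjusted p = 0.00164), and Irak1 was at 0.10 ± 0.07. Irak2 rose by 0.40 ± 0.12 (limma adjusted p = 0.0227). Its call did not hold with control array 2 dropped (0.33, with an adjusted p of 0.0667) or control array 4 (0.37, with 0.0547), nor with FSH/EGF array 3 (0.37, with 0.064) or array 4 (0.38, with 0.0564). Traf6, the ubiquitin ligase downstream of these kinases, was at 0.45 ± 0.16, just outside the threshold (limma adjusted p = 0.0509), although its FSH/EGF arrays (7.63 to 8.03) lay above all controls (6.95 to 7.56). Traf6 passed under 9 of the 21 alternatives, over which its difference ran from 0.24 to 0.52 and its adjusted p from 0.0353 to 0.241. Dropping control array 2 (0.51, with an adjusted p of 0.048) or control array 4 (0.52, with 0.0396) brought it past, as did dropping GDF9 array 1, 2 or 4 (0.45, with 0.0495, 0.0483 and 0.0498). Dropping control array 1 (0.32, with 0.126) or FSH/EGF array 4 (0.37, with 0.133) moved it away from the threshold.

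Of the NF-kB subunits, 3 of the 4 measured rose. Nfkb2, the subunit of the non-canonical arm, rose by 0.82 ± 0.10 (1.76-fold; limma adjusted p = 6.03e-05), Rela, the main activating subunit, by 0.68 ± 0.12 (1.60-fold) and Relb, the partner of the Nfkb2 product, by 0.46 ± 0.08 (1.37-fold). For each of them the FSH/EGF arrays lay above all controls. Rel was at 0.08 ± 0.13 with overlapping groups.

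The inhibitors of NF-kB were not alike. Nfkbib, which encodes an inhibitor that holds NF-kB in the cytoplasm, rose by 0.99 ± 0.10 (1.98-fold; limma adjusted p = 6.21e-06), from a control range of 7.02 to 7.39 to an FSH/EGF range of 8.02 to 8.23. Nfkbiz, a nuclear member of the inhibitor family that also acts as a co-activator, stood at 5.56, 5.69, 5.84 and 6.07 in the controls, 5.79, 5.91, 5.71 and 5.98 with GDF9, and 6.66, 6.70, 6.81 and 7.47 with FSH/EGF. It rose by 1.12 ± 0.17 (2.18-fold; limma adjusted p = 0.00024), and FSH/EGF array 4 was the highest of a group that did not overlap with the rest. Nfkbia, the inhibitor gene that NF-kB itself switches on, was at 8.98, 8.84, 8.79 and 8.88 in the controls and at 8.32, 8.48, 8.30 and 9.17 with FSH/EGF. Thus 3 FSH/EGF arrays lay below every control and array 4 above every control. The difference was -0.31 ± 0.18 (limma adjusted p = 0.214), and without FSH/EGF array 4 it passed at -0.51 (adjusted p = 0.0091), as it did at -0.52 after renewed quantile normalization (adjusted p = 0.0449). Tnfaip3, which encodes the inhibitor A20, stood at 5.82, 5.84, 5.60 and 5.91 in the controls and 5.16, 5.19, 5.49 and 5.98 with FSH/EGF. Here too array 4 was the highest, the difference was -0.34 ± 0.19 (limma adjusted p = 0.2), and without array 4 it passed at -0.51 (adjusted p = 0.0375).

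**Figure D4:**
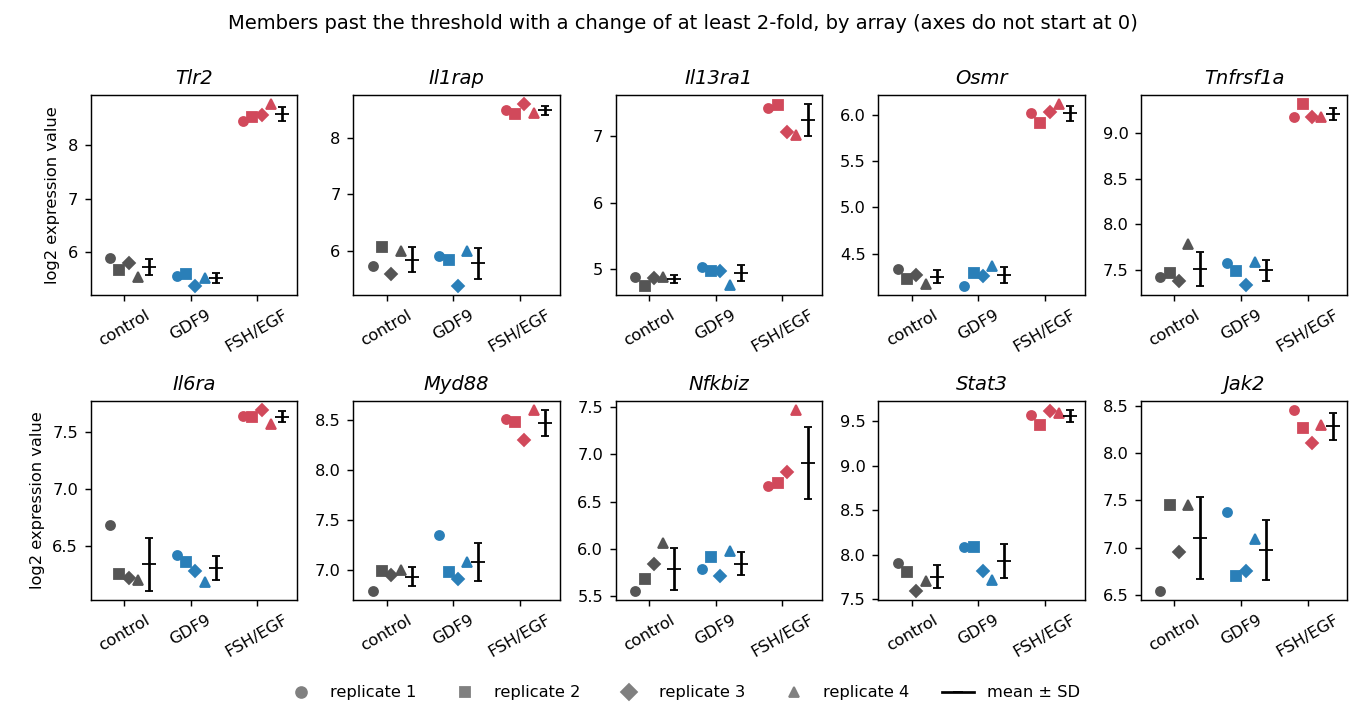
Log2 expression values on each array for the 10 members that passed limma's threshold with a rise of at least 2-fold; colours are the 3 groups, marker shapes the replicate numbers, and the black bar is the mean ± SD of 4 arrays. In every panel all 4 FSH/EGF arrays lie above all control and GDF9 arrays.

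Of the 12 cytokines 3 rose, none of them by as much as 2-fold. Lif, leukaemia inhibitory factor, stood at 4.88, 4.72, 4.64 and 4.72 in the controls, 4.62, 4.91, 4.47 and 4.41 with GDF9, and 5.61, 5.68, 5.78 and 5.76 with FSH/EGF. FSH/EGF arrays lay above all others, and the rise was 0.97 ± 0.10 (1.95-fold; limma adjusted p = 1.64e-05). Il6 was at 3.47, 3.43, 3.46 and 3.37 in the controls, 3.49, 3.38, 3.45 and 3.44 with GDF9, and 3.95, 4.10, 4.15 and 4.99 with FSH/EGF. Its groups did not overlap, with array 4 well above the other FSH/EGF arrays. Il6 rose by 0.86 ± 0.17 (1.82-fold; limma adjusted p = 0.00242), and by 0.63 without array 4 (adjusted p = 5.24e-05). Its control level lay in the lowest of the 10 level classes, so the size of the rise is approximate and may be understated.

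Il1a, the gene of an alarm cytokine kept within cells, lay in the same dim class and rose by 0.31 ± 0.09 (limma adjusted p = 0.0237), which did not hold with FSH/EGF array 1 dropped (0.25, with an adjusted p of 0.0773) or array 3 (0.30, with 0.0553). The other 9 cytokines did not pass the test. Il1b, whose product signals through the same receptor, was at -0.06 (95% interval -0.23 to 0.12). Il11, another IL-6 family ligand, was at 0.12, and the growth factor genes Csf1 and Csf2 were at -0.21 and -0.05. Cxcl1, a chemokine that draws neutrophils, stood at 6.86, 6.62, 6.92 and 6.90 in the controls and 6.76, 7.02, 7.17 and 8.06 with FSH/EGF. Its groups overlapped, the difference was 0.43 ± 0.22 (limma adjusted p = 0.17), and without FSH/EGF array 4 it was 0.16 (adjusted p = 0.41). The monocyte chemokine genes Ccl2 and Ccl7 were at -0.19 and -0.06. Cxcl12, which attracts cells through CXCR4, was at -0.25 ± 0.09 (limma adjusted p = 0.0632) and passed under 3 of the 21 alternatives, over which it ran from -0.31 to -0.12 and its adjusted p from 0.028 to 0.465. It passed with control array 2 dropped (-0.31, with 0.028) or GDF9 array 1 (-0.25, with 0.0468), and stood at -0.17 with control array 1 dropped (adjusted p = 0.15).

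The high values of FSH/EGF array 4 recurred in a subset of members. Array 4 exceeded the mean of the other 3 FSH/EGF arrays by 1.07 for Cxcl1, 0.93 for Il6, 0.81 for Nfkbia, 0.75 for Nfkbiz, 0.70 for Tnfaip3 and 0.48 for Rela. It was the highest of the 4 for 11 of 14 adaptors and NF-kB genes and for 8 of 12 cytokines, but for 3 of 16 receptors. Over all genes it was the highest for 31.1%. These genes were picked out after their values were seen. GDF9 array 4 was also the highest of its group for Nfkbia (8.94), Nfkbiz (5.98), Tnfaip3 (5.97) and Rela (7.88), but not for Cxcl1 or Il6. Control array 4 was the highest control for Nfkbiz (6.07) and Tnfaip3 (5.91), but not for Cxcl1, Il6, Nfkbia or Rela. Summed linear values of 18 leukocyte markers were 544 on FSH/EGF array 4, neither the lowest nor the highest of the 4 FSH/EGF arrays (540 to 552). Those of 16 oocyte markers were 536, again neither the lowest nor the highest (522 to 661). Of these markers, 11 leukocyte and 9 oocyte genes lay in the lowest 3 level classes, so the sums may miss a small amount of such RNA. The part of such RNA in the values of array 4 was not tested.

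**Figure D5:**
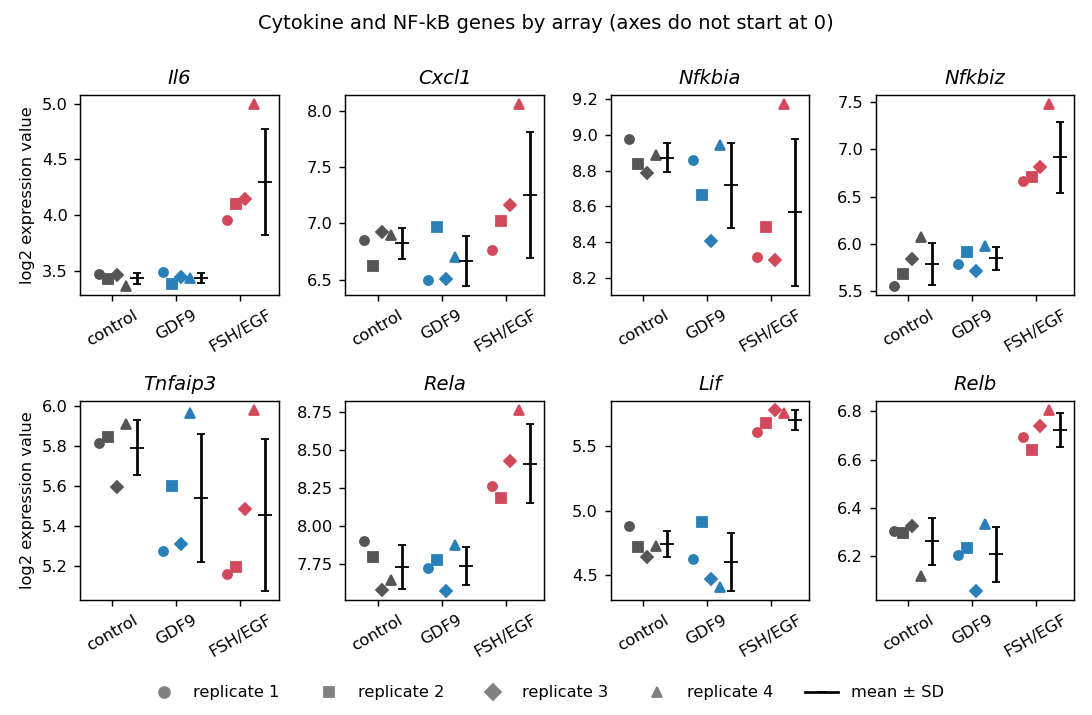
Log2 expression values on each array for cytokine and NF-kB genes; colours are the 3 groups, marker shapes the replicate numbers, and the black bar is the mean ± SD of 4 arrays. The triangle of FSH/EGF replicate 4 lies above the other FSH/EGF points for Il6, Cxcl1, Nfkbia, Nfkbiz, Tnfaip3, Rela and Relb, but not for Lif.

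Among the signal carriers behind cytokine receptors, Stat3 and Jak2 rose at least 2-fold. Stat3, the main transcription factor of the IL-6 family, stood at 7.91, 7.81, 7.60 and 7.71 in the controls, 8.09, 8.09, 7.81 and 7.71 with GDF9, and 9.57, 9.45, 9.61 and 9.59 with FSH/EGF. The FSH/EGF arrays lay within a narrow band above all others, and the rise was 1.80 ± 0.10 (3.48-fold; limma adjusted p = 3.72e-08). Jak2, a receptor-bound tyrosine kinase, was at 6.54, 7.45, 6.96 and 7.45 in the controls, 7.38, 6.70, 6.76 and 7.09 with GDF9, and 8.46, 8.27, 8.11 and 8.30 with FSH/EGF. Its control arrays were widely spread but lay below all FSH/EGF arrays, and it rose by 1.18 ± 0.20 (2.27-fold; limma adjusted p = 0.00073). Jak1, a kinase used by gp130, had a difference of -0.06 (95% interval -0.25 to 0.13). Stat5a rose by 0.47 ± 0.10 (limma adjusted p = 0.00259), a call lost after renewed quantile normalization (0.25, adjusted p = 0.135). Irf1, an interferon-induced factor, was at 0.01 ± 0.10, and its second probe set was at -0.34 (limma adjusted p = 0.0619).

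The SOCS genes, which encode feedback inhibitors of JAK signalling, differed from each other. Socs3 was at 6.66, 6.24, 6.37 and 6.34 in the controls, 6.02, 6.66, 6.49 and 6.48 with GDF9, and 6.89, 7.23, 6.98 and 7.30 with FSH/EGF. It rose by 0.70 ± 0.14 (1.62-fold; limma adjusted p = 0.00271) with no overlap, but its second, dimmer probe set gave 0.14 ± 0.10 (adjusted p = 0.285), so the probe sets disagreed. Socs2, a regulator of growth hormone signalling, stood at 10.63, 10.69, 10.81 and 10.66 in the controls, 10.89, 10.74, 10.90 and 10.66 with GDF9, and 10.14, 10.02, 10.11 and 10.08 with FSH/EGF. It fell by 0.61 ± 0.07 on the log2 scale (limma adjusted p = 4.19e-05), all FSH/EGF arrays lay below the rest, and its second probe set gave -0.79. Socs1, the inhibitor of interferon signalling, was at -0.31 ± 0.18 (limma adjusted p = 0.235), with control array 1 at 7.07 and the other controls at 6.31 to 6.34.

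Further genes of the same pathways were read from wider lists. Over all genes, 21.9% rose and 14.9% fell past the threshold, with a median of -0.07. Of 18 further pattern sensors and cofactors measured, 3 (16.7%) rose and 4 fell. Ly96, which encodes the MD-2 partner of TLR4, rose by 1.25 ± 0.18 (limma adjusted p = 0.000206), Tlr7 rose by 0.50, and the scavenger receptor gene Cd36 and the inflammasome adaptor gene Pycard fell by 0.53 and 0.38 on the log2 scale. The count of falls was 2 without control array 1 or 3, 1 without FSH/EGF array 1 or 3, and 1 with equal array medians. Of 29 further adaptors, kinases and regulators of NF-kB, 16 (55.2%) rose and 1 fell, with a median of 0.31. Bcl3, a nuclear partner of NF-kB, rose by 1.08 ± 0.12, Tollip, an inhibitor of IRAK kinases, by 1.06 ± 0.09, and Zc3h12a, a ribonuclease that degrades Il6 mRNA, by 1.04 ± 0.10. Peli2 was the faller, at -0.96 ± 0.10.

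Of 41 further cytokine and chemokine genes and receptors, 12 rose and 6 fell, with a median of -0.03. The share that rose was 29.3%, beside 21.9% of all genes. Clcf1, a cytokine of the IL-6 family, rose by 3.24 ± 0.13 (limma adjusted p = 2.25e-09), from a control mean of 5.71 to 8.95. The cytokine gene Il7 rose by 2.59 ± 0.10, Cxcr4, the receptor of CXCL12, by 2.26 ± 0.16, and Il17ra by 2.23 ± 0.13. Ackr3, a scavenging receptor for CXCL12, fell by 1.08 ± 0.12 on the log2 scale, and it is named after its value was seen. Of 21 further JAK, STAT and regulator genes, 8 (38.1%) rose and 3 fell, with a median of 0.22. Stat6, the transcription factor of IL-4 and IL-13 signalling, rose by 1.16 ± 0.08 and the phosphatase gene Ptpn1 by 0.89 ± 0.09, while Socs7 and the phosphatase gene Ptpn2 fell by 0.81 and 0.78 on the log2 scale.

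Marker lists were read beside these values, since immune genes are also expressed by leukocytes. Fewer cells of a type and less RNA per cell cannot be told apart in bulk samples. Over all genes, 21.9% rose and 14.9% fell past the threshold, with a median of -0.07. Of 18 leukocyte markers, 2 rose (Cd68 by 0.50 and Cd52 by 0.46) and 2 fell (Cd53 at -0.26 and Cd48 at -0.23), their median difference was -0.18, and 11 lay in the lowest 3 level classes. Their summed linear value ran from 546 to 599 on the control arrays, 505 to 591 with GDF9 and 540 to 552 with FSH/EGF. Of 11 granulosa and cumulus markers 1 rose and 7 fell. Their sums ran from 12183 to 12915 in the controls and from 8605 to 9002 with FSH/EGF. Fshr was at -3.14, Amhr2 at -2.16, Slc38a3 at -2.10 and Nr5a2 at -2.09. Inhba, the gene that rose, was at 1.02 and is named after its value was seen. Of 10 endothelial markers 2 rose, Cdh5 by 3.18 (from a mean of 4.98 to 8.16) and Tek by 0.29, the other 8 did not pass, and the median difference was -0.03. Their sum, which holds Cdh5, was 329 to 380 in the controls and 565 to 630 with FSH/EGF. Of 9 theca and stroma markers 1 rose (Mgp by 1.15) and 3 fell, with a median of -0.28. Acta2, the actin gene of smooth muscle, fell most, from a mean of 8.71 to 6.37, and the sums that hold it were 831 to 1001 and 526 to 578. Of 16 oocyte markers 1 fell, with a median of -0.31 and sums of 566 to 1167 and 522 to 661, the highest being that of control array 4. The part of leukocyte, endothelial, stromal and oocyte RNA in the members' changes was not tested. With 3 arrays dropped together (controls 1 and 4, FSH/EGF 3), a choice made after seeing the data, 22 members passed in place of 24, and Irak2 and Il1a were the genes lost.

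GDF9 minus control compared cells given the oocyte factor with cells in control medium. Complexes of both groups kept their oocytes, a source of GDF9, so the comparison was of added GDF9 only. None of the 50 members passed limma's threshold, as was so for 0% of all genes, and the smallest adjusted p among members was 0.971. Before adjustment, 3 members had p under 0.05, where 4.95% of all genes did. Tlr6 was at -0.20 ± 0.09 and Tlr2 at -0.21 ± 0.09, opposite in sign to the rise of Tlr2 with FSH/EGF. Stat5a was at 0.21 ± 0.10, Stat3 at 0.17 ± 0.10 and Jak1 at 0.13 ± 0.09, with limma adjusted p = 0.971 for each of the 5. Stat5a was the only member whose GDF9 arrays (7.51 to 7.72) lay above all controls (7.23 to 7.50), which held for 1.09% of all genes. The differences of the members ran from -0.25 for Tnfaip3 to 0.21 for Stat5a, with a median of -0.04 against -0.02 for all genes. The 95% intervals of every member excluded a 2-fold change, the widest being that of Cxcl1 at -0.64 to 0.33. This holds for the array values, which may understate a change in the dimmest members, such as Il6 and Il1a.

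FSH/EGF minus GDF9 tested the difference between the treatments, and it shares its FSH/EGF arrays with the first comparison. The labels name control medium for the FSH/EGF group but not for the GDF9 group, so that medium may differ here too. Of the members, 20 were higher and 2 lower with FSH/EGF (limma, adjusted p under 0.05), where 29.1% of all genes passed, 18.6% higher and 10.5% lower. Tlr2 was higher by 3.06 ± 0.09, Il1rap by 2.71 ± 0.13, Il13ra1 by 2.31 ± 0.11 and Stat3 by 1.63 ± 0.10. Lif was higher by 1.10 ± 0.10, and Socs2 and Tnfrsf1b were lower, at -0.71 and -0.55. Stat5a and Il1a, which passed against control, did not pass here. Stat5a had a mean of 7.38 in the controls, 7.59 with GDF9 and 7.84 with FSH/EGF, and the last step of 0.26 ± 0.10 had an adjusted p of 0.0753. Over the 21 alternatives that step ran from 0.09, after renewed quantile normalization, to 0.32, without FSH/EGF array 4, with adjusted p from 0.0214 to 0.651, and it passed under 3 of them. Il1a was at 0.22 ± 0.09 (adjusted p = 0.112), and it passed under 2 of the 20 alternatives that tested it, with values from 0.17, without FSH/EGF array 1, to 0.29, without GDF9 array 1 (adjusted p = 0.294 and 0.0234). Lifr was at -0.28 ± 0.11 (adjusted p = 0.0865), and it passed under 5 of the 21 alternatives, over which it ran from -0.41 to -0.24 and its adjusted p from 0.00417 to 0.22. Dropping control array 4 (-0.28, with 0.036) or GDF9 array 2 (-0.37, with 0.0284) brought it past. Traf6 was at 0.40 (adjusted p = 0.0933) and passed under 2 alternatives, among them without control array 1 (adjusted p = 0.0424), with a range from 0.25 to 0.48 and adjusted p up to 0.252. Cxcl1 was at 0.58 (adjusted p = 0.0837). It passed only with FSH/EGF array 1 dropped (0.75, with 0.0317) among the 21 alternatives, and stood at 0.32 with FSH/EGF array 4 dropped (adjusted p = 0.142).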

How the data were processed

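The deposited table held log2 expression values, which the authors had normalized before deposit. The submitters' processing notes list GCOS, RMA and Partek, with neither version nor role. The genome build of the array annotation is not given in the sources used here, so no gene position is taken from it. Values ran from 2.92 to 14.3 and array medians from 5.41 to 5.53. The 35399 rows gave 1 symbol for 21789 rows, several for 1621 and none for 11989, and the last 2 kinds stay unnamed but were tested. Arrays give no read depth, and their number limits the precision. Correlations between arrays of a group ran from 0.971 to 0.995.

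All 12 arrays entered a single limma fit (version 3.58.1, R 4.3.3), with 1 mean per group and Benjamini-Hochberg adjustment over all 35399 rows. The fit was tested on simulated data. The members and lists were chosen with earlier results of these data known, so no p-value is adjusted over a list alone. Values on every array are given for members past the threshold with a change of at least 1 on the log2 scale and for Lif, the cytokine with the smallest p. Other lists name up to 4 genes by size, and GDF9 minus control the 5 members with the smallest p. Array values of other members were picked with the values in view. The labels do not say whether the replicate numbers pair the arrays, and the main fit did not pair them. Alternatives were a variance trend, only the groups compared, 2 other scalings, no dim rows (the lowest 40%), array weights, the mean over probe sets, a replicate block, each array left out, and, chosen after earlier results, 3 arrays left out together.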

Additional observations from a re-analysis of the deposited data

Results flagged for a closer look

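In 10 of the 150 sets of 4 arrays tested (50 members in 3 groups), 1 array stood apart from the other 3 by more than Dixon's 95% critical value allows for the gap over the range. Chance flags about 1 in 20 such sets. On control array 1, Il6ra was at 6.69 (other controls 6.21 to 6.26), Nfkbib at 7.39 (7.02 to 7.07), Socs1 at 7.07 (6.31 to 6.34) and Rel at 7.49 (7.98 to 8.02). On control array 2, Il13ra1 was at 4.75 (4.87 to 4.89) and Ccl2 at 5.64 (5.39 to 5.41). On control array 4, Relb was at 6.12 (6.30 to 6.33). On FSH/EGF array 2, Tnfrsf1a was at 9.31 (9.17 to 9.18), and on FSH/EGF array 3, Ccl2 was at 5.16 (5.29 to 5.30) and Irf1 at 6.35 (6.62 to 6.64). No flagged value was on FSH/EGF array 4. In Il6ra, Il13ra1, Tnfrsf1a, Nfkbib and Relb, which rose with FSH/EGF, the FSH/EGF arrays still lay above all controls.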

How the results depend on the processing

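Under the 21 alternatives, the members' counts of rises with FSH/EGF stayed within 1.5 times the main count of 22 against control and of 20 against GDF9, and GDF9 minus control kept 0 members. The count of falls against control, 2, was 4 after renewed quantile normalization and 5 with array weights, which added Cxcl12, Ccl2 and Csf1. With 1 array left out it ran from 2 to 4, the rises from 20 to 23, and against GDF9 the rises ran from 20 to 21 and the falls from 2 to 3. Among the further pattern sensors the falls, 4, came to 1 with equal array medians, 2 with the replicate block, 1 with 3 arrays dropped together (controls 1 and 4, FSH/EGF 3), and 1 to 4 with 1 array left out. Falls among the further NF-kB regulators, 1, came to 3 after renewed quantile normalization, and those among the further cytokine genes, 6, to 2 without the 3 arrays. The causes were not tested. Against GDF9, Il11 passed under both other scalings (0.29 and 0.28). With the replicate number as a block, 25 members passed against control, the 24 and Traf6 (0.45, adjusted p = 0.0481). Deviations of same-numbered arrays correlated from -0.389 to 0.221, which does not settle whether the numbers pair the arrays. Dim rows left out removed 14 of the 50 members. No member reversed its sign while past the threshold.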
